A study of Mus musculus with 18 samples.

Results

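Cyp51, Dhcr7, Nsdhl, Sc5d, Insig1, Srebf2 and Stard4, 4 enzymes of late sterol synthesis with 3 genes of sterol control and transport, were taken by symbol from 2 expression tables, 1 for cultured macrophages and 1 for livers of mice. They are 7 of the 21441 genes in each table. All 7 had a mean above 1 FPKM (fragments per kilobase of transcript, scaled between libraries) over the 9 libraries of each table, as did 9905 macrophage genes and 10147 liver genes in all.

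RNA-seq was used to ask how MIC-1 (moringa isothiocyanate-1, a small isothiocyanate isolated from moringa seed) alters the response to LPS, the bacterial lipopolysaccharide that sets off inflammatory signalling. The cultured cells were RAW264.7, a mouse line with macrophage properties. Their 9 libraries were 3 Control, 3 LPS and 3 LPS+MIC-1 with 10 µM MIC-1, and the LPS concentration of these cultures was not given in the sources used here. The 9 liver libraries came from wild-type C57BL/6 male mice, 3 per group out of treatment groups of 6: Mice were gavaged for 3 days with 80 mg/kg MIC-1 in DMSO (LPS+MIC-1) or with vehicle (Control and LPS), and then received 10 mg/kg LPS into the peritoneum or, as Control, saline. Livers were taken 16 h later. No group with MIC-1 but without LPS was analysed here. The liver libraries came from 9 mice. For the macrophages nothing stated that libraries of 1 group came from separate cultures, so their p-values measure the spread between these libraries, which may be technical.

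Cells make cholesterol from acetyl-CoA through mevalonate, squalene and lanosterol, and the late enzymes trim and rearrange lanosterol into cholesterol. SREBP2, the product of Srebf2, is a membrane-bound transcription factor that is released to the nucleus when membrane cholesterol is low and switches on the genes of this pathway. Insig proteins hold it in the endoplasmic reticulum when sterols are plentiful, and the liver is a major site of both the synthesis and the export of cholesterol.

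The libraries did not all follow their labels. In macrophages the 12 listed LPS-response genes summed to 516 to 909 FPKM in Control, to 32853 and 33452 in LPS libraries 1 and 3, and to 909 in LPS library 2. Ccl5 made up most of the sums in LPS libraries 1 and 3, at 24673 and 25371 FPKM. Cxcl10 and Socs3 were lower in these libraries than in Control, and the rest of the list was higher. Over all genes tested, LPS library 2 had a Pearson r of 0.990 with Control library 2 and of 0.862 and 0.860 with LPS libraries 1 and 3. The library labelled LPS 2 was kept, and macrophage values are also given without it. It does not enter the fold changes of LPS+MIC-1 against Control, only their errors. The second libraries of the other macrophage groups also stood apart, and they stay in the fit without LPS library 2. Control library 2 had r = 0.984 and 0.9825 with its group, where the other pair reached 0.991. For LPS+MIC-1 library 2 the values were 0.977 and 0.975, where the other pair reached 0.988. Its Il1b was 81.7 FPKM against 635 and 664. In liver, LPS library 2 stood at r = 0.889 and 0.893 with the other LPS libraries, which reached 0.979 with each other. Likewise LPS+MIC-1 library 2 stood at 0.935 and 0.932 with its group, where the other pair reached 0.979, and its Cps1 was 57.1 FPKM against 267 and 268 and its Cd14 407 against 56.7 and 61.4. LPS-response genes already summed to 6242 FPKM in Control library 2, against 948 and 209 in the other controls. Saa3 (4075 FPKM) and Lcn2 (2037) made up most of that sum, and the list was not uniform. Ccl5 was 18.4 FPKM there against 7.18 and 19.7 in the other controls, and Il1b 0.587 against 1.17 and 1.72. Libraries are numbered by column order within a group, which is only a name. The estimated depth was 14.2 to 18.6 M reads in macrophages, 3.77 to 8.84 M reads in liver Control and 10.4 to 16.3 M reads in the other livers. Macrophage markers (5 of 6 found) summed to 10912 to 13366 FPKM in the cell line and hepatocyte markers to 3.11 to 14.8, while the 4 Kupffer cell markers Clec4f, Vsig4, Timd4 and Marco summed to 0.0786 FPKM at most there.

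In Control macrophages Srebf2 had the highest level of the 7 genes, 41.4 ± 7.63 FPKM (mean ± SD, n = 3), and Insig1 followed at 37.1 ± 12.3. Nsdhl, Dhcr7 and Cyp51 stood at 26.7 ± 6.51, 24.0 ± 4.65 and 20.5 ± 8.11. Sc5d was lower at 14.0 ± 3.34, and Stard4 was the lowest at 6.62 ± 2.15. Each gene overlapped its neighbour in this order except Sc5d and Stard4. The liver order was different: Insig1 at 157 ± 30.3 and Sc5d at 156 ± 21.4 led with overlapping ranges, followed by Nsdhl at 72.4 ± 4.18 and Dhcr7 at 50.8 ± 10.4. Cyp51 stood at 27.8 ± 8.94, Stard4 at 11.2 ± 5.88 and Srebf2, the lowest there, at 5.05 ± 1.89. From Sc5d downwards no neighbours in the liver order overlapped. The tables were normalised separately, so these are orders within a tissue and no level was tested between tissues. At the estimated depths the lowest values rest on about 33.6 reads for Stard4 in macrophages and 37.4 reads for Stard4 in liver, so Stard4 is the least precise of the 7.

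The promoters of 5 of the genes are shown because SREBP2 binds short elements in front of the genes it controls. Windows of 250 bases before the start were taken from RefSeq (GRCm38.p6) and placed by exact match on mm9, the build of the deposited index. Stard4 was left out of this search. For the other 6 of the 7 genes 8 windows were taken, since Dhcr7 has 3 starts, and motifs were searched in the whole windows. Each stretch shown is the longest run of bases that GENCODE vM1 does not count as exon. The stretches are chr5:4104747-4104947 (minus strand, 201 bases), chrX:70163751-70163859 (plus, 109 bases), chr9:42072384-42072633 (minus, 250 bases), chr5:28397702-28397951 (plus, 250 bases) and chr15:81977449-81977695 (plus, 247 bases), all upstream of the gene named. Capitals mark ATCACC, the core of the best-known sterol regulatory element, CCAAT or its complement ATTGG, which binds NF-Y, and the E-box CACGTG, and each motif was searched on both strands.
Cyp51: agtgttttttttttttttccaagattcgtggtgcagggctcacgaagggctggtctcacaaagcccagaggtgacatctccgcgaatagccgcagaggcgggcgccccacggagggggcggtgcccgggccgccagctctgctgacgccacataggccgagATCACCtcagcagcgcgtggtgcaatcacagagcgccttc
Nsdhl: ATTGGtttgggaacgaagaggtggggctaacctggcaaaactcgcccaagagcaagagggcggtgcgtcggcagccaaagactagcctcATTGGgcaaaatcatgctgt
Sc5d: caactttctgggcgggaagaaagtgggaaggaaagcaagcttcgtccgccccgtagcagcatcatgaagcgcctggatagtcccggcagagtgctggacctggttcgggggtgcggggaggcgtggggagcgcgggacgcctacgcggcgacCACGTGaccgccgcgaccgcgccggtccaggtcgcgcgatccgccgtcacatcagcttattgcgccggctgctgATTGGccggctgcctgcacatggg
Insig1: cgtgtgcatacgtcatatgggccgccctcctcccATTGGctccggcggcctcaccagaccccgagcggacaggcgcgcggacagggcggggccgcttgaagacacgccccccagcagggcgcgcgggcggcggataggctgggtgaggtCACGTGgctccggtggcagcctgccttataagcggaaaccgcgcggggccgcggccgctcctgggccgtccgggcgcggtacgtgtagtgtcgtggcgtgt
Srebf2: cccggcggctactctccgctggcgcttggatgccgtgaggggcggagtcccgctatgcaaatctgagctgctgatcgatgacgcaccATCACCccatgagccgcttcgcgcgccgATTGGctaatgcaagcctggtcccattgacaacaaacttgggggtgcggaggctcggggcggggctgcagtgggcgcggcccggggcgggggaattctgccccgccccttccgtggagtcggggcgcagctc

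Of 32851 RefSeq promoter windows, 33.8% held CCAAT, and windows of all 6 genes did (6 of 8 windows). The CCAAT of Cyp51 (-29 to -25) lies in exon bases left out of the stretch shown. ATCACC was found in 8.48% of all windows and in those of Cyp51 (bases -89 to -84 from the start), Nsdhl (-206 to -201, outside the stretch shown) and Srebf2 (-163 to -158). This core was chosen after the sequences had been read. The longer element TCACNCCAC was in 1.05% of all windows and in 0 of the 8. CACGTG was in 6.02% of all windows and in those of Insig1, Sc5d and the second start of Dhcr7. All bases of that Dhcr7 window count as exon. In Srebf2 the ATCACC and an ATTGG at -135 to -131 lie in the same stretch. A match describes the letters and is no evidence of binding.

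The first macrophage comparison asked what LPS alone did to these genes. With all 9 libraries none of the 7 passed (limma, adjusted p below 0.05), where 0% of all genes did. At an unadjusted p below 0.05 there were 3 of the 7 genes (Nsdhl, Sc5d and Stard4) and 4928 of 9905 genes. Without LPS library 2, Dhcr7 and Insig1 rose and Nsdhl and Stard4 fell, 4 of 7 genes where 75.2% of all genes were called (36.9% higher and 38.2% lower), so the count is below the background. In that fit the median log2 fold change of the 7 was -0.52, beside -0.02 for all genes, and with all 9 libraries it was -0.46, beside -0.03. With all 9 libraries only Sc5d had LPS libraries that lay wholly below Control, as did 17.2% of all genes.

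Cyp51, the demethylase that opens the late pathway by removing a methyl group from lanosterol, stood at 24.8, 11.2 and 25.6 FPKM in Control, at 10.1, 12.0 and 10.2 in LPS and at 5.68, 11.2 and 5.77 in LPS+MIC-1. The second library of every group lay between 11.2 and 12.0, whatever the treatment, while the first and the third fell into 3 separate levels. The fit over all 9 libraries gave LPS against Control a log2 fold change of -0.82 (SE 0.36, adjusted p = 0.102), and without LPS library 2 it was -0.89 (adjusted p = 0.0747). Adding MIC-1 to LPS gave -0.55 (adjusted p = 0.289), and -0.47 without LPS library 2 (adjusted p = 0.32). LPS+MIC-1 was lower than Control, at -1.37 (SE 0.36, adjusted p = 0.0282), although LPS+MIC-1 library 2 lay only just below Control library 2.

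Nsdhl, a dehydrogenase that works in the removal of the next methyl groups, stood at 32.0, 19.4 and 28.6 FPKM in Control, 18.2, 20.5 and 17.9 in LPS and 13.5, 14.4 and 13.4 in LPS+MIC-1. Its LPS libraries were close together and overlapped only Control library 2, and all 3 LPS+MIC-1 libraries lay below every other library. LPS against Control gave -0.46 (SE 0.18, adjusted p = 0.0824), and Nsdhl fell at -0.52 without LPS library 2 (adjusted p = 0.0326). Between LPS+MIC-1 and LPS it was -0.43 (adjusted p = 0.119), which was -0.37 without LPS library 2 (adjusted p = 0.107) and became 0.046 when all libraries were scaled to 1 FPKM sum. Against Control, LPS+MIC-1 lowered Nsdhl by a log2 of -0.90 (SE 0.18, adjusted p = 0.0112).

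Sc5d, the desaturase that prepares the substrate of Dhcr7, stood at 15.7, 10.2 and 16.2 FPKM in Control, 9.43, 9.64 and 9.46 in LPS and 15.2, 18.1 and 12.8 in LPS+MIC-1. The 3 LPS libraries were the lowest of the 9 and the LPS+MIC-1 libraries returned to the Control range or above. LPS against Control gave -0.51 (SE 0.20, adjusted p = 0.0825) and LPS+MIC-1 against LPS gave 0.65 (SE 0.20, adjusted p = 0.0513). The second difference passed without LPS library 2, at 0.66 (adjusted p = 0.0256), and the first did not, at -0.52 (adjusted p = 0.0559). LPS+MIC-1 against Control was 0.14 (adjusted p = 0.641), and its sign turned under 1 FPKM sum (-0.043).

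Dhcr7, the reductase that makes cholesterol itself in 1 branch of the pathway, stood at 26.1, 18.7 and 27.3 FPKM in Control, 41.6, 19.7 and 36.7 in LPS and 12.3, 16.4 and 11.4 in LPS+MIC-1. LPS libraries 1 and 3 were the highest of the 9, LPS library 2 lay beside Control library 2, and the LPS+MIC-1 libraries were the lowest. LPS against Control was 0.39 (SE 0.29, adjusted p = 0.294) over all 9 libraries, turned to -0.29 under 1 FPKM sum, and was 0.71 without LPS library 2 (SE 0.20, adjusted p = 0.012). With MIC-1 added to LPS it fell, at -1.20 (SE 0.29, adjusted p = 0.0259) and -1.53 without LPS library 2 (adjusted p = 0.000297), and the call was lost under 1 FPKM sum, at -0.72 (adjusted p = 0.0561). Against Control the value was -0.82 (adjusted p = 0.0761), which passed without LPS library 2 (adjusted p = 0.00496).

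**Figure D1:**
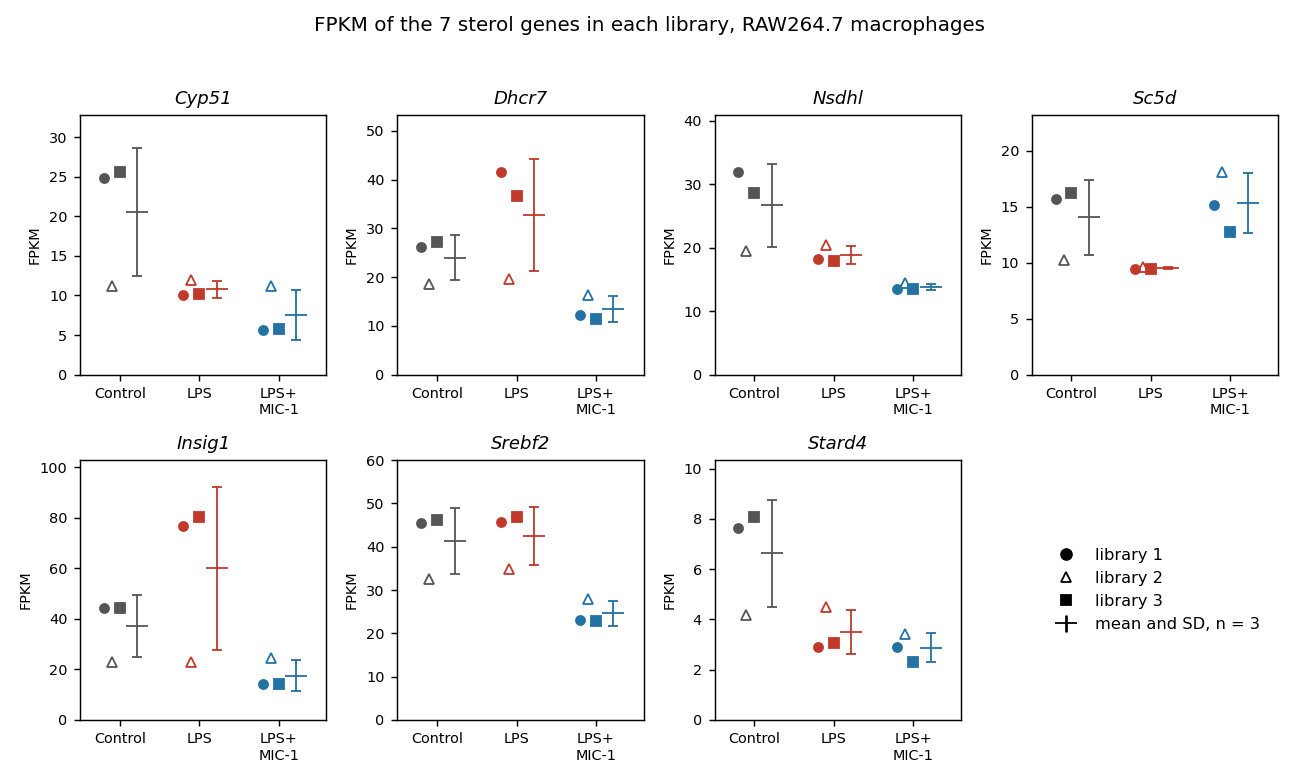
FPKM of the 7 genes in the 9 macrophage libraries, 1 panel per gene with its own axis from 0. Filled circles, open triangles and filled squares are libraries 1, 2 and 3 of a group, and the bars beside them are the mean and SD (n = 3). LPS library 2 sits beside Control library 2 in each panel, for example 22.7 and 22.9 FPKM for Insig1, where LPS libraries 1 and 3 reached 76.8 and 80.3.

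Insig1, which retains SREBP2 in the endoplasmic reticulum and is itself switched on by it, stood at 44.2, 22.9 and 44.2 FPKM in Control, 76.8, 22.7 and 80.3 in LPS and 14.2, 24.4 and 14.0 in LPS+MIC-1. The 2 LPS libraries that carried the LPS response were the highest and LPS+MIC-1 libraries 1 and 3 the lowest, and all second libraries lay between 22.7 and 24.4. Over all 9 libraries LPS against Control was 0.54 (SE 0.51, adjusted p = 0.39), and -0.13 under 1 FPKM sum. Insig1 rose without LPS library 2, by a log2 of 1.13 (SE 0.33, adjusted p = 0.015). For LPS+MIC-1 against LPS the values were -1.59 (SE 0.51, adjusted p = 0.0586) and, without LPS library 2, -2.18 (SE 0.33, adjusted p = 0.0007), the largest change of the 7 genes. LPS+MIC-1 against Control gave -1.05 (adjusted p = 0.168), and the same size passed without LPS library 2 (adjusted p = 0.017) although the ranges overlapped.

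Srebf2 stood at 45.4, 32.6 and 46.3 FPKM in Control, 45.8, 34.9 and 46.9 in LPS and 23.0, 27.8 and 22.9 in LPS+MIC-1. LPS and Control could hardly be told apart library by library, and every LPS+MIC-1 library lay below all the others. The log2 fold change of LPS against Control was 0.04 (SE 0.18, adjusted p = 0.859, 95% interval -0.38 to 0.46), 0.18 without LPS library 2 (adjusted p = 0.34), and -0.63 under 1 FPKM sum. LPS+MIC-1 lowered Srebf2 against LPS by a log2 of -0.77 (SE 0.18, adjusted p = 0.0232), -0.91 without LPS library 2 (adjusted p = 0.00151), and -0.28 under 1 FPKM sum (adjusted p = 0.363). Against Control it was lower as well, at -0.73 (SE 0.18, adjusted p = 0.024).

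Stard4, a soluble carrier that moves sterol between membranes and is another SREBP2 target, stood at 7.63, 4.16 and 8.08 FPKM in Control, 2.90, 4.48 and 3.07 in LPS and 2.91, 3.43 and 2.29 in LPS+MIC-1. LPS libraries 1 and 3 and all LPS+MIC-1 libraries were below every Control library, and LPS library 2 lay just above Control library 2. LPS against Control gave -0.81 (SE 0.28, adjusted p = 0.0777) and Stard4 fell without LPS library 2, at -0.98 (SE 0.27, adjusted p = 0.0112). The step from LPS to LPS+MIC-1 was -0.23 (95% interval -0.87 to 0.41, adjusted p = 0.567), -0.058 without LPS library 2 (adjusted p = 0.86), and 0.18 under 1 FPKM sum. LPS+MIC-1 lowered it against Control, at -1.04 (SE 0.28, adjusted p = 0.0299).

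LPS against Control and LPS+MIC-1 against LPS share the LPS libraries, so their values stand side by side and were not related to each other. In LPS+MIC-1 against LPS 2 of the 7 genes passed, Dhcr7 and Srebf2, where 21.6% of all genes did (11.4% lower). Without LPS library 2 Insig1 fell and Sc5d rose as well, 4 of 7 where 68.0% of genes were called (34.0% higher and 34.1% lower). Under 1 FPKM sum Sc5d alone passed, at 1.12 (adjusted p = 0.0455). The groups did not overlap for Sc5d, which was higher as were 17.9% of genes, and for Dhcr7, Nsdhl and Srebf2, which were lower as were 18.2%. The count of 2 became 0 without LPS library 1 or 3 or LPS+MIC-1 library 1 or 3, and 4 without Control library 2. In LPS+MIC-1 against Control 4 genes fell, Cyp51, Nsdhl, Srebf2 and Stard4, where 24.8% of genes were called (13% lower), and 6 fell without LPS library 2, where 60.3% were (32.2% lower). The 4 calls became 0 without Control library 1 or 3 and 1 without LPS+MIC-1 library 1 or 3. Under 1 FPKM sum Dhcr7 (-1.004, adjusted p = 0.0196) and Srebf2 (-0.92, adjusted p = 0.0292) passed and Cyp51, Nsdhl and Stard4 did not (adjusted p = 0.0563, 0.0611 and 0.0833). In that comparison 5 genes lay wholly below Control, as did 34.9% of all genes. With only the first and the third libraries of each group, a choice made after the data had been seen, 6, 6 and 6 of the 7 genes passed in the 3 comparisons, where 81.3%, 76.0% and 69.1% of all genes did. There Cyp51 fell with LPS by a log2 of -1.27 and again with MIC-1 by -0.78, while Dhcr7 and Insig1 rose with LPS by 0.54 and 0.82 and fell with MIC-1 by -1.68 and -2.44. Neutrophil markers (4 of 5 found) moved with MIC-1 in these cells, from 3.88 to 41.3 FPKM in LPS to 687 to 754 in LPS+MIC-1. S100a8 (651 to 718 FPKM in LPS+MIC-1) and Mmp8 (21.4 to 35.7) made up that sum, while S100a9 stayed at 0.482 or less and Retnlg at 0 in every LPS and LPS+MIC-1 library, and their part in these values was not tested.

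In liver LPS lowered 4 of the 7 genes, Nsdhl, Insig1, Sc5d and Stard4, where 34.7% of all genes were called and 15.5% were lower. The median over the 7 was -1.15, beside 0.15 over all genes tested. Without LPS library 2 Dhcr7 fell too, at -0.81 (adjusted p = 0.0218), which made 5 of 7 genes where 49.0% of all genes were called (21.5% lower). All LPS livers lay below all Control livers for 5 genes, as for 20.8% of all genes. In a bulk liver, fewer cells of a type and less RNA per cell cannot be told apart. The groups differed in other ways at the same time: neutrophil markers (4 of 5 found) summed to 2.58 to 8.89 FPKM in Control, 310 to 386 in LPS and 175 to 426 in LPS+MIC-1, macrophage markers (5 of 6) to 28.6 to 43.2, 127 to 625 and 127 to 436, and hepatocyte markers (6 of 6) to 41578 to 80703, 46560 to 49937 and 41563 to 56836. The lists were not uniform: Cd14 went from 3.49 to 10.8 in Control to 84.2 to 569 in LPS while Csf1r was 3.49 to 7.32 and 5.49 to 8.73, and Fgb went from 556 to 1825 up to 5067 to 13195 while Cps1 went from 234 to 301 down to 67.5 to 82.2. The 4 Kupffer cell markers summed to 24.2 to 43.0, 32.7 to 46.6 and 45.8 to 82.6, with Clec4f at 13 to 30.1 in Control and 2.85 to 6.32 in LPS, Vsig4 at 3.02 to 6.70 and 1.22 to 1.497, and Marco at 2.18 to 6.79 and 23.1 to 40.4. The part of these markers and of the lower depth of the Control libraries was not tested.

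Cyp51 stood at 38.1, 22.3 and 23.0 FPKM in liver Control, 23.3, 22.6 and 24.8 in LPS and 57.8, 42.5 and 59.0 in LPS+MIC-1. LPS livers matched 2 of the 3 Control livers, and all 3 LPS+MIC-1 livers lay above the other 6. LPS against Control was -0.19 (95% interval -0.74 to 0.36, adjusted p = 0.547), and 0.054 without Control library 1. Between LPS+MIC-1 and LPS it was 1.14 (SE 0.24), with an unadjusted p = 0.00119 and an adjusted p = 0.997. Cyp51 was the only one of the 7 genes that rose against Control, at 0.95 (SE 0.24, adjusted p = 0.0169), and under 1 FPKM sum this was 0.30 (adjusted p = 0.238). The call was also lost without Control library 2 or 3 or LPS+MIC-1 library 1 or 3, with values of 0.82 to 0.88.

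Nsdhl had the largest fall with LPS of the 7 genes. It stood at 76.5, 72.6 and 68.2 FPKM in Control, 10.9, 19.0 and 10.6 in LPS and 35.4, 23.5 and 37.0 in LPS+MIC-1. The 3 groups did not overlap, and within LPS and LPS+MIC-1 the second library lay toward the other group. LPS lowered it by a log2 of -2.43 (SE 0.27, adjusted p = 0.001), a ratio of means of 0.186. The step from LPS to LPS+MIC-1 was 1.24 (SE 0.27, unadjusted p = 0.0014, adjusted p = 0.997), and 1.505 without LPS library 2, where it passed (adjusted p = 0.0483). LPS+MIC-1 livers remained below Control, at -1.19 (SE 0.27, adjusted p = 0.0112).

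Sc5d stood at 176, 134 and 159 FPKM in Control, 60.6, 49.2 and 61.0 in LPS and 66.0, 53.5 and 66.4 in LPS+MIC-1. Every treated liver was below every Control liver, and LPS and LPS+MIC-1 overlapped. LPS lowered it by a log2 of -1.45 (SE 0.19, adjusted p = 0.00195). With MIC-1 added to LPS it was 0.12 (95% interval -0.30 to 0.55, adjusted p = 0.997), and -0.17 under 1 FPKM sum. LPS+MIC-1 lay below Control at -1.33 (SE 0.19, adjusted p = 0.00243).

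Dhcr7 stood at 62.7, 46.5 and 43.2 FPKM in Control, 29.1, 38.7 and 27.8 in LPS and 46.5, 35.8 and 51.5 in LPS+MIC-1. The LPS livers were below all Controls, and LPS+MIC-1 overlapped both. The fit gave -0.66 for LPS against Control (SE 0.23, adjusted p = 0.0516), 0.48 for LPS+MIC-1 against LPS (adjusted p = 0.997) and -0.18 for LPS+MIC-1 against Control (95% interval -0.70 to 0.33, adjusted p = 0.546). Under 1 FPKM sum both differences from Control passed, at -1.02 for LPS (adjusted p = 0.00619) and -0.83 for LPS+MIC-1 (adjusted p = 0.00991), a scaling that moved the median of all genes to -0.18 and -0.43.

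**Figure D2:**
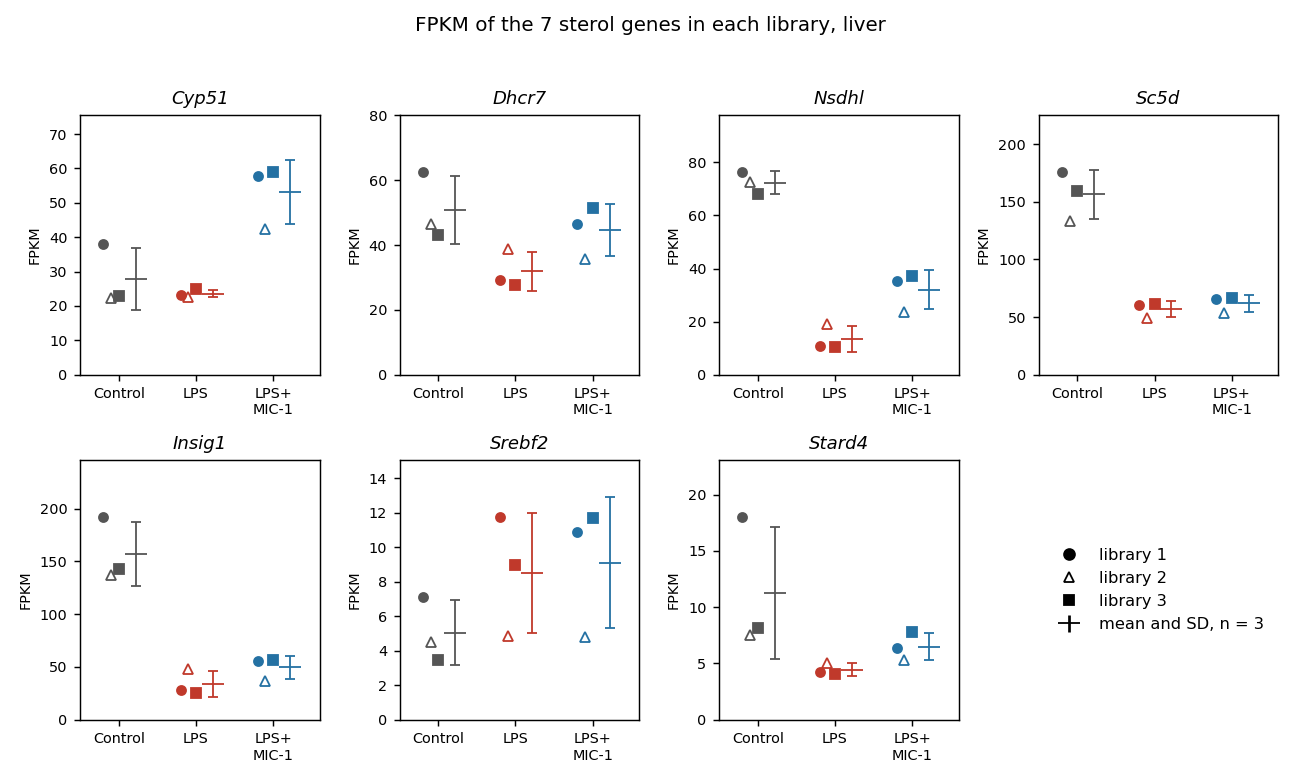
FPKM of the 7 genes in the 9 liver libraries, 1 panel per gene with its own axis from 0, with symbols as for the macrophages (libraries 1, 2 and 3) and the mean and SD of 3 beside them. All Control livers lie above all LPS livers for Dhcr7, Nsdhl, Sc5d, Insig1 and Stard4, and all LPS+MIC-1 livers lie above all LPS livers for Cyp51, Nsdhl and Stard4.

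Insig1 fell almost as far as Nsdhl. Its levels were 192, 137 and 143 FPKM in Control, 27.9, 47.6 and 25.5 in LPS and 55.2, 37.0 and 56.5 in LPS+MIC-1. Control livers stood apart from all 6 others, and LPS library 2 overlapped LPS+MIC-1. LPS gave -2.25 (SE 0.29, adjusted p = 0.00193), a ratio of means of 0.214, and LPS+MIC-1 against Control gave -1.66 (SE 0.29, adjusted p = 0.00475). The change from LPS to LPS+MIC-1 was 0.58 (95% interval -0.08 to 1.24, adjusted p = 0.997). The other Insig gene, Insig2, went the other way in liver, from a mean of 14.7 FPKM in Control to 91.7 in LPS, a log2 fold change of 2.79 (SE 0.82, adjusted p = 0.0308).

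Srebf2 stood at 7.14, 4.54 and 3.47 FPKM in Control, 11.8, 4.86 and 8.95 in LPS and 10.9, 4.78 and 11.7 in LPS+MIC-1. The second libraries lay between 4.54 and 4.86 in all 3 groups, and the groups overlapped. LPS against Control was 0.68 (95% interval -0.30 to 1.65, adjusted p = 0.235), LPS+MIC-1 against LPS was 0.08 (adjusted p = 0.997), with -0.19 under 1 FPKM sum and -0.26 without LPS library 2, and LPS+MIC-1 against Control was 0.75 (adjusted p = 0.189). The calls for Srebf2 depend on how libraries are weighted: without LPS library 2 LPS against Control was 1.01 with groups that did not overlap (adjusted p = 0.0845), and with array weights, which let libraries count unequally, it passed at 1.09 (adjusted p = 0.0019), as did LPS+MIC-1 against Control at 1.199 (adjusted p = 0.000512).

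Stard4 stood at 18.0, 7.53 and 8.16 FPKM in Control, 4.21, 5.09 and 4.03 in LPS and 6.36, 5.34 and 7.79 in LPS+MIC-1. LPS livers were the lowest 3 of the 9, and Control library 1 was more than 2 times any other. LPS lowered Stard4 by a log2 of -1.15 (SE 0.32, adjusted p = 0.0258), a call that was lost without LPS library 1 (-1.11, adjusted p = 0.0789) or 3 (-1.09, adjusted p = 0.0893). The step to LPS+MIC-1 was 0.49 (adjusted p = 0.997) and against Control -0.65 (adjusted p = 0.137), which passed under 1 FPKM sum at -1.27 (adjusted p = 0.00643).

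In LPS+MIC-1 against LPS none of the 7 genes passed in liver (limma), where 0% of all genes did and the smallest adjusted p was 0.0546. At an unadjusted p below 0.05 there were 2 of the 7 genes, Cyp51 and Nsdhl, and 364 of 10147 genes. All 7 fitted values were above 0, between 0.08 and 1.24 with a median of 0.49, beside -0.01 over all genes. The LPS+MIC-1 livers lay above all LPS livers for 3 genes, Cyp51, Nsdhl and Stard4, as for 5.10% of all genes. With 1 FPKM sum in every library Sc5d and Srebf2 turned below 0. With array weights 5 of the 7 rose, Cyp51, Dhcr7, Nsdhl, Insig1 and Stard4, and 3063 of 10147 genes were called. Without LPS+MIC-1 library 2 none of the 7 passed, with values from 0.22 for Sc5d to 1.44 for Nsdhl, and 0 of all genes did. Without LPS library 2 Nsdhl alone passed, where 0.355% of all genes did (0.197% higher). In LPS+MIC-1 against Control 4 genes passed, Cyp51 upwards and Nsdhl, Sc5d and Insig1 downwards, where 36.4% of all genes were called, 20.1% higher and 16.3% lower. The same 4 genes had groups that did not overlap, as had 30.5% of all genes upwards and 24.1% downwards. They passed again without LPS library 2, where 45.2% of all genes did (25.6% higher and 19.6% lower). With only the first and the third liver libraries, 5, 1 and 4 of the 7 genes passed in the 3 comparisons, where 43.3%, 2.24% and 35.1% of all genes did.

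**Figure D3:**
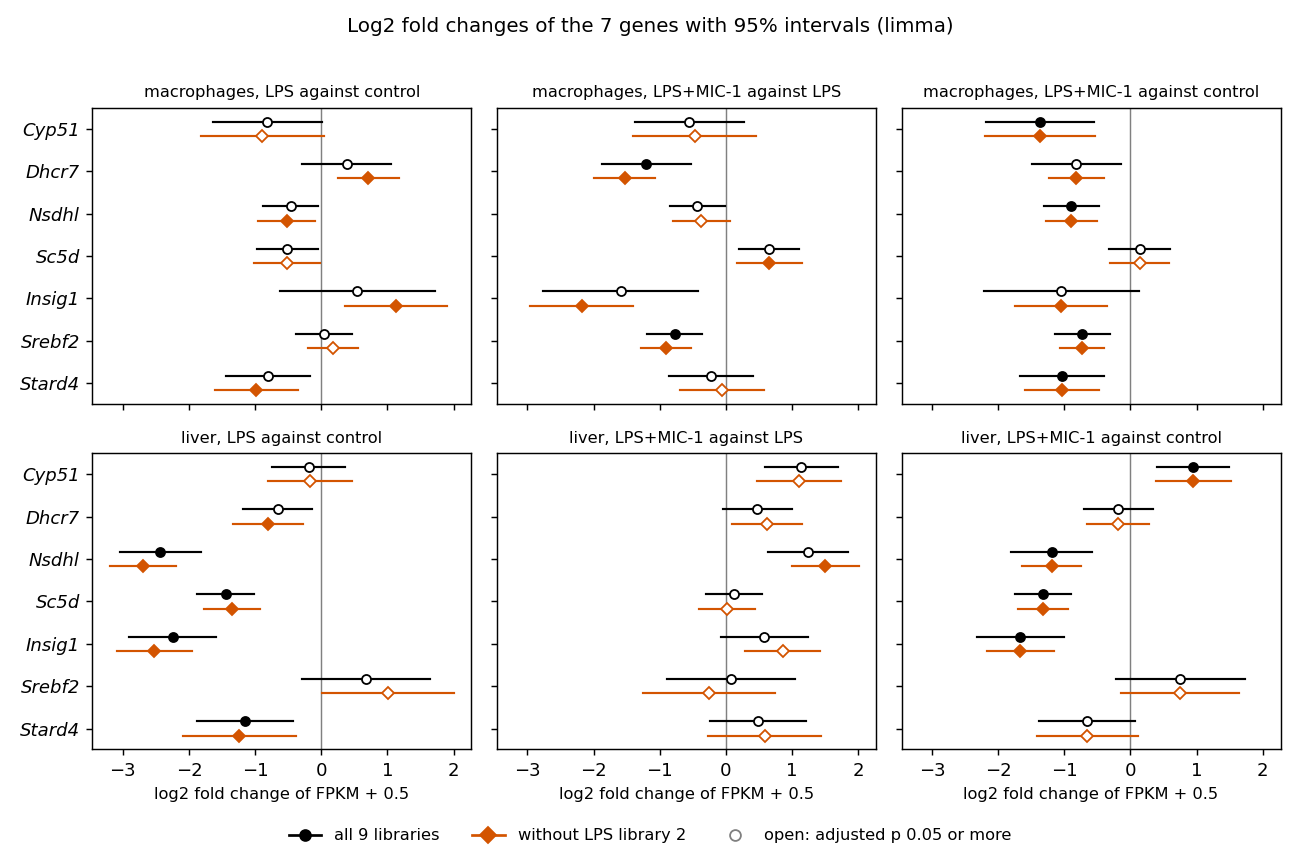
Log2 fold changes of FPKM + 0.5 (x axis) for the 7 genes (y axis) in 3 comparisons, macrophages above and liver below, with 95% intervals from limma. Black circles use all 9 libraries and orange diamonds leave out LPS library 2 of that tissue, and filled symbols have an adjusted p under 0.05. In macrophages Insig1 lies at 1.13 and -2.18 in the first 2 comparisons without LPS library 2 (0.54 and -1.59 with it, and -0.13 in the first under 1 FPKM sum), and in liver at -2.25 and 0.58.

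The rest of the pathway is given by 4 lists. Of the 12 listed mevalonate and squalene enzymes 11 were tested in macrophages. With all 9 libraries none of them passed for LPS against Control, with a median of -0.79. Without LPS library 2, where 75.2% of all genes were called, 8 fell and 1 rose, with a median of -1.01, and the largest fall with values above 0 was that of Acat2, which joins acetyl-CoA units, at -2.12 (adjusted p = 0.000232). Ggps1 was listed at 0 FPKM in LPS libraries 1 and 3, against a Control mean of 3.22. The one that rose was Mvd, the mevalonate decarboxylase, at 0.68 (adjusted p = 0.00632). Of the 6 other late sterol enzymes 4 fell, among them the sterol reductase Lbr at -3.13 (adjusted p = 4.9e-06), and none rose. Lbr also anchors chromatin at the nuclear envelope.

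Among 12 tested genes of the SREBP pathway and sterol uptake, 6 rose and 5 fell with LPS in macrophages without LPS library 2, where 36.9% of all genes rose and 38.2% fell. Npc2, the lysosomal cholesterol carrier, rose by 2.65 (adjusted p = 1.1e-05), while Srebf1, the sister factor of Srebf2, fell by -1.15 (adjusted p = 0.00138) and Mbtps1, the protease that makes the first cut in SREBPs, by -1.10 (adjusted p = 1.59e-05). Of 5 tested oxysterol and LXR genes 2 fell, Nr1h3 at -1.23 (adjusted p = 0.021) and Cyp27a1 at -0.85 (adjusted p = 0.0015). In LPS+MIC-1 against LPS with all 9 libraries, the calls in these 4 lists were Mvd (-1.14, adjusted p = 0.0312), Tm7sf2 (-1.30, adjusted p = 0.00416), Stard5 (0.89, adjusted p = 0.0185), Abcg1 (-1.17, adjusted p = 0.00743) and Abca1 (1.95, adjusted p = 0.00388), the last 2 being sterol exporters, where 21.6% of all genes were called.

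Without LPS library 2 more genes of the lists passed for LPS+MIC-1 against LPS, where 34.0% of all genes rose and 34.1% fell. Of 11 mevalonate and squalene enzymes 2 rose and 1 fell, with a median of 0.40. Hmgcs1, which makes the precursor of mevalonate, rose by 0.96 (adjusted p = 0.00463), Ggps1 was listed at 0 in the LPS libraries, and Mvd fell by -1.49 (adjusted p = 0.000135). Of 6 late enzymes 2 rose, among them Lbr (0.82, adjusted p = 0.00544), and 2 fell, Tm7sf2 (-1.43, adjusted p = 0.000165) and Sc4mol (-0.76, adjusted p = 0.0368). Of 12 SREBP and uptake genes 4 rose and 3 fell, among them Srebf1 (1.04, adjusted p = 0.00294) and Npc2 (-2.50, adjusted p = 2.35e-05), and of 5 oxysterol genes Abca1 rose (2.00, adjusted p = 0.000721) and Abcg1 fell (-1.10, adjusted p = 0.00229). In LPS+MIC-1 against Control with all 9 libraries, where 13% of all genes fell, 5 of 11 mevalonate and squalene enzymes fell, led by Acat2 (-1.60, adjusted p = 0.0367) and Idi1 (-1.49, adjusted p = 0.0249), and 2 of 6 late enzymes, Lbr (-2.31, adjusted p = 0.0419) and Tm7sf2 (-1.08, adjusted p = 0.00697). Leaving out LPS library 2, 7 of 11 and 5 of 6 fell, where 32.2% of all genes did.

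In liver LPS lowered 6 of 10 tested mevalonate and squalene enzymes and raised 1, with a median of -0.62, where 15.5% of all genes fell and 34.7% were called. Fdps, which makes farnesyl units, fell by -1.36 (adjusted p = 0.00379), while Sqle, the squalene epoxidase, rose by 0.91 (adjusted p = 0.042). None of the 6 other late sterol enzymes passed, with a median of -0.18. Of 12 SREBP pathway and uptake genes 2 rose, Insig2 and Npc2 (1.36, adjusted p = 0.0111), and 3 fell, among them Scap (-0.65, adjusted p = 0.0302), the escort of SREBPs. Of 7 oxysterol and LXR genes Ch25h (3.24, adjusted p = 0.0111) and Cyp7b1 (1.66, adjusted p = 0.0336) rose and Cyp27a1 fell (-1.57, adjusted p = 0.00461). These 3 genes encode enzymes that make or break down oxysterols, which bind Insig proteins.

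In liver LPS+MIC-1 against LPS no gene of the 4 lists passed (limma), and the medians were 0.48 for the mevalonate and squalene enzymes, 0.46 for the late enzymes, 0.06 for the SREBP and uptake genes and 0.03 for the oxysterol genes. Against Control, where 20.1% of all genes were higher and 16.3% lower, 1 of 10 mevalonate and squalene enzymes was higher in LPS+MIC-1 livers, Sqle (1.52, adjusted p = 0.00707), and 1 was lower, and 1 of 6 late enzymes was higher. Of 12 SREBP and uptake genes Insig2 (2.81, adjusted p = 0.0281) and Npc2 (1.72, adjusted p = 0.00453) were higher and Npc1 lower (-0.62, adjusted p = 0.039). Of 7 oxysterol genes Cyp7b1 was higher (2.09, adjusted p = 0.0139) and Cyp27a1 lower (-1.44, adjusted p = 0.00519).

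**Figure D4:**
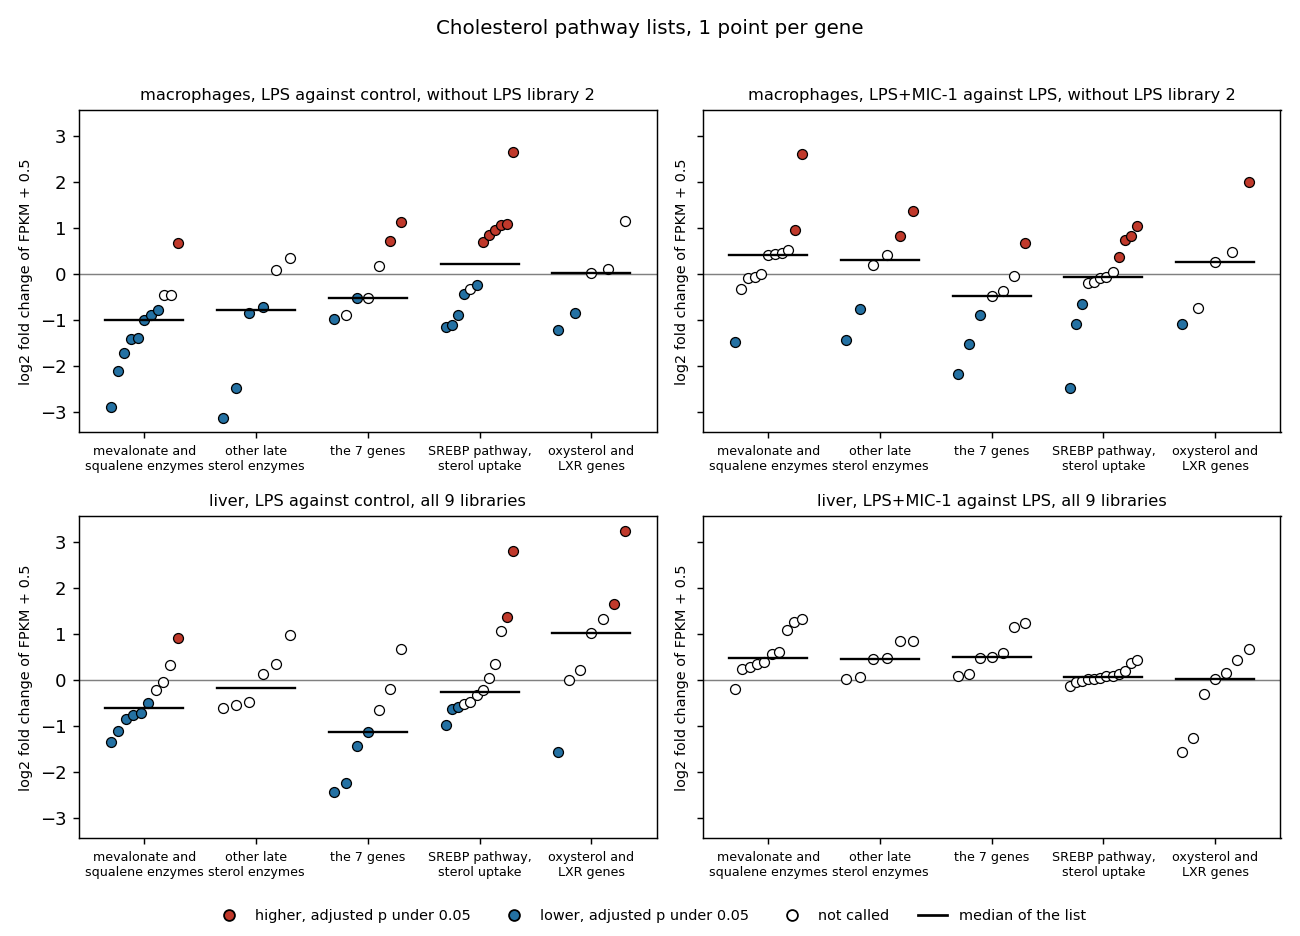
Log2 fold changes of FPKM + 0.5 (y axis), 1 point per tested gene, for the 7 genes and 4 lists of the cholesterol pathway (x axis), with the macrophages without LPS library 2 above and liver below. Red and blue points passed upwards and downwards at an adjusted p under 0.05, open points did not pass, and bars are list medians. In macrophages with LPS the medians are -1.01 for mevalonate and squalene enzymes, -0.78 for other late enzymes and -0.52 for the 7 genes. The lowest mevalonate point is Ggps1, listed at 0 in both LPS libraries, so its fitted value is no bound. In liver the same groups have medians of -0.62, -0.18 and -1.15 with LPS and of 0.48, 0.46 and 0.49 for LPS+MIC-1 against LPS.

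The 7 genes fell into different patterns in the 2 tissues, given here as Pearson r of log2(FPKM + 0.5) over 9 libraries that share treatments, depth and the libraries that stand apart. In macrophages Dhcr7 and Insig1 had r = 0.98 and Dhcr7 and Srebf2 0.95, and Cyp51, Nsdhl and Stard4 had r between 0.93 and 0.95 with each other, while Sc5d had 0.36 at most with any other. In liver Nsdhl and Insig1 had r = 0.96 and Sc5d and Insig1 0.92, and Srebf2 was negative with 5 of the others, at -0.49 with Insig1. Among the genes outside the 7, the 2 with the highest r were Fads1 (0.985) and Prkar2a (0.973) for Cyp51, Pmvk (0.989) and Agpat5 (0.9754) for Stard4, Ube2e1 for both Dhcr7 (0.993) and Insig1 (0.987), followed by Ptpn1 (0.993) and Ipo5 (0.986), in macrophages. In the same cells they were Krr1 (0.985) and Matr3 (0.984) for Nsdhl, Kif5b (0.9749) and Actg1 (0.957) for Sc5d, and Msl3 (0.988) and Acp1 (0.988) for Srebf2. In liver they were Acss2 (0.996) and Acsf2 (0.994) for Insig1, Cyp2c50 (0.989) and Dlat (0.986) for Sc5d, Hpgd (0.98) and Mettl7a1 (0.977) for Dhcr7, and Khnyn (0.974) and Aspa (0.974) for Nsdhl. For the remaining liver genes they were H3f3a (0.961) and Dera (0.959) for Cyp51, Bhlha15 (0.978) and Dnajb12 (0.977) for Srebf2, and Cyr61 (0.965) and Lad1 (0.964) for Stard4.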

How the data were processed

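FPKM values from RNA-seq of 18 samples, 9 macrophage libraries and 9 livers, were analysed with 3 libraries per group. Reads were pseudoaligned by Kallisto (0.45.0), against RefSeq transcripts of mm9, and tximport gave gene totals. From these the authors computed the FPKM values in DESeq2 (1.20.0). The study describes 2 macrophage LPS replicates, whereas the labels and the table hold 3, and which one was left out is not given in the sources used here. Sample labels repeat the mouse doses for macrophages. The authors also deposited DESeq2 comparisons (mean normalised counts, log2 fold changes with errors, Wald statistics and p-values), which were not used. Columns carry the treatment but no replicate number.

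Genes with a mean above 1 FPKM were tested on log2(FPKM + 0.5) with limma (3.58.1, R 4.3.3), with a trended prior and all 9 libraries of a table in 1 fit, and p-values were adjusted by Benjamini-Hochberg over all genes tested. A gene was called at an adjusted p below 0.05. Adding 0.5 understates changes of low genes. Depth was estimated from the steps between low FPKM values. Of the sparse values, 67.6% to 89.6% were whole multiples within 0.1, too few for a count test. The named genes are the 7, the 2 called genes of each list with the largest change in each direction, and the 2 genes with the highest r, and some genes that this rule names are not reported here. The 7 genes and the lists were chosen with earlier results of these data known. Mylip, Cd68 and Ly6g were not matched by symbol. Tables were tested separately because each was normalised on its own.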

Additional observations from a re-analysis of the deposited data

Results flagged for a closer look

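Dhcr7, Nsdhl and Insig1 had opposite signs in the 2 tissues for LPS+MIC-1 against LPS, every LPS+MIC-1 library lying on 1 side of the mean of the LPS libraries in each tissue. Dhcr7 was at -1.20 in macrophages and 0.48 in liver, Nsdhl at -0.43 and 1.24, and Insig1 at -1.59 and 0.58. Of these values only Dhcr7 in macrophages passed (limma, adjusted p = 0.0259). Nsdhl (0.119) and Insig1 (0.0586) did not pass there, and each liver value had an adjusted p = 0.997. The groups overlapped for Dhcr7 in liver and for Insig1 in both tissues. Cyp51 did the same for LPS+MIC-1 against Control, at -1.37 in macrophages (limma, adjusted p = 0.0282) and 0.95 in liver (adjusted p = 0.0169). Both calls were lost under 1 FPKM sum, at -1.56 (adjusted p = 0.0563) and 0.30 (adjusted p = 0.238). Each was also lost when some single libraries were left out, such as Control library 3 of that tissue (adjusted p = 0.105 and 0.0609). The difference between the tissues was not tested, since the tables were normalised separately, and the cells were given MIC-1 in culture and the mice by gavage. The macrophage value of Nsdhl turned to 0.046 under 1 FPKM sum, and the macrophage values for LPS+MIC-1 against LPS rest on a group that held LPS library 2.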

How the results depend on the processing

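Of 6 comparisons, the count of the 7 genes called moved by over 1.5 times under some settings. For macrophage LPS against Control (0 as reported) it was 6 with array weights, where 8347 of 9905 genes were called. It was 6 with the first and the third libraries only, where 81.3% of all genes were called. With 1 library left out it was 0 to 4, and the 4 came without LPS library 2, where 75.2% were called. For macrophage LPS+MIC-1 against LPS (2) it was 1 under 1 FPKM sum, where 1582 of 9905 genes were called. It was 6 with array weights, where 7664 genes were, and 6 with the first and the third libraries only, where 76.0% were. It was 0 with only the 2 groups compared and with the first and the third libraries averaged. At an adjusted p below 0.01 with an absolute log2 fold change above 1 it was 0 as well. With 1 library left out it was 0 to 4. For macrophage LPS+MIC-1 against Control (4) it was 2 under 1 FPKM sum, where 1421 of 9905 genes were called. It was 0 averaged, 0 at the stricter threshold, 2 at an unadjusted p below 0.05 with that fold, and 0 to 6 with 1 library left out. In liver, LPS against Control (4) had 1 averaged and 3 to 5 with 1 library left out. LPS+MIC-1 against LPS (0) had 5 with array weights, where 3063 of 10147 genes were called. It had 1 with the first and the third libraries only, where 2.24% were called, 2 at the unadjusted threshold and 0 to 1 with 1 library left out. LPS+MIC-1 against Control (4) had 1 averaged, 2 at the stricter threshold and 3 to 4 with 1 library left out. For the remaining settings the shares of all genes are not given here, so those counts stand without a background.

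Single genes turned sign in 20 values, all of them uncalled in the fit as reported. Under 1 FPKM sum in every library, which moved the median of all genes to -0.65, 0.44 and -0.21 in the 3 macrophage comparisons and to -0.18, -0.26 and -0.43 in liver, the values were -0.29 for Dhcr7, -0.13 for Insig1 and -0.63 for Srebf2 (macrophage LPS against Control), 0.046 for Nsdhl and 0.18 for Stard4 (macrophage LPS+MIC-1 against LPS), -0.043 for Sc5d (macrophage LPS+MIC-1 against Control), and -0.17 for Sc5d and -0.19 for Srebf2 (liver LPS+MIC-1 against LPS). That scaling split the macrophage calls for LPS+MIC-1 against LPS into 1228 higher and 354 lower, beside 1011 and 1130 as reported, and the liver calls against Control into 733 and 3443, beside 2038 and 1654 (LPS+MIC-1), and 1119 and 2473, beside 1947 and 1573 (LPS). With array weights Sc5d was -0.12 (macrophage LPS+MIC-1 against Control), Cyp51 0.064 (liver LPS against Control) and Dhcr7 0.038 (liver LPS+MIC-1 against Control), and Sc5d was -0.19 in macrophages with the first and the third libraries only. With 1 library left out, macrophage Srebf2 went from -0.12 to 0.18 for LPS against Control (below 0 without Control 2, LPS 1 or LPS 3), macrophage Sc5d from -0.069 to 0.26 for LPS+MIC-1 against Control (below 0 without Control 2), liver Cyp51 from -0.33 to 0.054 for LPS against Control (above 0 without Control 1) and liver Srebf2 from -0.26 to 0.46 for LPS+MIC-1 against LPS (below 0 without LPS 2, LPS+MIC-1 1 or LPS+MIC-1 3). The cause was not tested.

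Pseudocounts of 0.1 and 1, no filter, a mean above 5 FPKM, median-of-ratios scaling and no trend left each count within 1.5 times. No paired analysis was possible because the columns carry no replicate number, so the replicate block was not run. The setting with only the first and the third libraries was chosen after seeing the data. The lowest values rest on about 33.6 reads for Stard4 in macrophages, and on 37.4 for Stard4 and 78.8 for Srebf2 in liver, so depth limits these most of the 7.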

Other observations

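Insig1 and Cyp51, both SREBP2 targets, changed unequally within libraries. The ratio of Insig1 to Cyp51 FPKM was 1.78, 2.05 and 1.72 in Control macrophages, 7.61, 1.89 and 7.86 in LPS and 2.50, 2.18 and 2.43 in LPS+MIC-1. LPS libraries 1 and 3 stood far above all others and LPS library 2 within the Control range. In liver the ratio was 5.04, 6.13 and 6.22 in Control, 1.2, 2.11 and 1.03 in LPS and 0.955, 0.872 and 0.957 in LPS+MIC-1, so that the 3 groups did not overlap and went down in that order. This ratio was chosen after the levels had been seen and was not tested.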
